A study of Mus musculus with 10 samples.

Results

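The 9 genes described here encode the transcription factors that are commonly taken to define the hepatocyte: Hnf4a, Cebpa, Cebpb, Foxa1, Foxa2, Foxa3, Onecut1, Prox1 and Nr5a2. They were chosen by gene symbol, and all 9 were found among the 29657 genes of the deposited table and passed the filter on low values, so that 9 of 13471 tested genes are members. They were measured by RNA-seq in whole liver from 10 C57BL/6 mice that had been fed CDAHFD, a choline-deficient, amino acid-defined diet high in fat, for 8 weeks. The control group of 5 mice carried the label WT and had received the vector AAV8-NC intravenously. The other 5 mice had received AAV8-TBG-galectin-3 intravenously and were labelled as having galectin-3 knocked down in hepatocytes. The TBG promoter restricts a transgene largely to hepatocytes, and what the vector carries behind it is not described. The diet was common to both groups, and no mice on a normal diet were part of the comparison. Sex and age are not given in the sources used here.

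Hepatocyte genes are switched on by a small set of DNA-binding proteins that bind to one another's regulatory regions and to those of secreted protein and metabolic enzyme genes. HNF4A, a nuclear receptor, occupies a large share of active hepatocyte promoters and enhancers in mouse liver. The FOXA proteins open chromatin for it during liver development. C/EBP proteins are leucine zipper factors of metabolism and of the acute phase response, ONECUT1 (HNF6) acts in hepatocytes and bile ducts, and PROX1 is a homeodomain protein that can repress through HNF4A and NR5A2 (LRH-1), the latter a nuclear receptor of bile acid and cholesterol metabolism. In mice, deletion of Hnf4a or Cebpa in hepatocytes disturbs lipid handling and lowers the expression of many liver genes.

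Values are FPKM, which divides a gene's fragments by its length and by the size of the library, so that levels can be compared between genes. The summed FPKM of a library was 380593 ± 7412 in the control group and 401666 ± 12562 in the other (mean ± SD, n = 5 each). Lgals3, the gene named as the target, stood at 70.8 ± 22.9 FPKM in control livers and 74.2 ± 20.1 FPKM in the others (log2 fold change 0.08, limma adjusted p = 0.856), so the second group is called labelled knockdown and directions rest on the labels. Libraries also differed with transcript length: per doubling of length, log2 values departed from the gene mean by 0.03 ± 0.01 in control and by -0.03 ± 0.02 in labelled knockdown libraries, without overlap of the groups.

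Of the 9 genes, 2 were lower in the labelled knockdown livers and 0 were higher (limma on log2(FPKM + 1), adjusted p under 0.05 over all tested genes). The genes lower were Hnf4a and Cebpa, whose mean FPKM were 0.743 and 0.716 of the control mean. By log2 fold change, 7 of the 9 genes lay below 0, with a median of -0.20. The median over all tested genes was -0.04, so most of those also lay below 0. Foxa1 and Foxa2, among the 7, turned sign without control 2. Across all tested genes 9.65% were lower and 7.13% higher (1300 and 960 of 13471), and among the 839 other tested genes to which the deposited table assigns a transcription factor family 6.56% were lower and 4.77% higher. A count of 2 among 9 genes cannot be told from these shares, and it shows nothing particular to these factors as a group. With median-of-ratios scaling of the libraries, 1060 genes were lower and 1240 higher; with the length trend removed, 720 and 894; with libraries scaled to their FPKM sum, 1974 and 632; with that sum taken without mitochondrially encoded genes, 1595 and 744. The number of lower genes over the table dropped to between 549 and 828 without control 2, 3 or 4 or labelled knockdown 1, 2, 3 or 5, and that of higher genes to between 442 and 625 without control 2, 3 or 4 or labelled knockdown 1, 3 or 5.

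**Figure D1:**
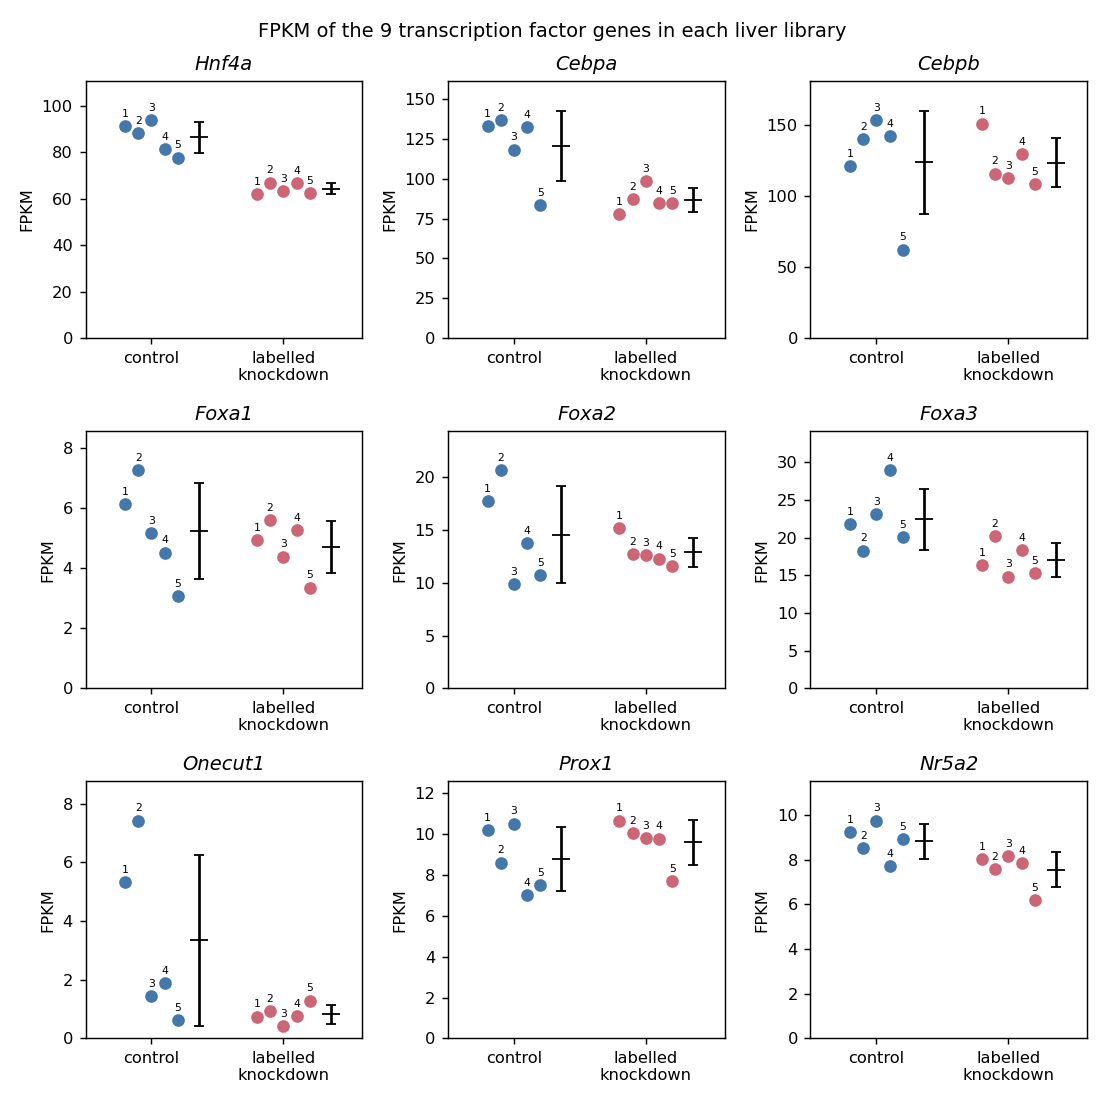
FPKM (vertical axes, each from 0) of the 9 genes in the 5 control and 5 labelled knockdown libraries; points are libraries with their replicate numbers, and the black mark with its bar is the mean ± SD. The groups are apart for Hnf4a, with 77.8 to 93.8 FPKM in control and 61.9 to 67.0 FPKM in labelled knockdown libraries, and overlap for the other 8 genes.

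Hnf4a (ENSMUSG00000017950) had the smallest p of the 9. Its level was 91.2, 88.5, 93.8, 81.3 and 77.8 FPKM in controls 1 to 5, against 61.9, 67.0, 63.4, 66.7 and 62.5 FPKM in labelled knockdowns 1 to 5. Every labelled knockdown library was below every control library. The lowest control library exceeded the highest labelled knockdown library by more than the whole range of the labelled knockdown group. Over all tested genes, every labelled knockdown library was below every control library for 7.48%, and above for 5.66%, whatever the size of the gap. The mean fell from 86.5 ± 6.77 to 64.3 ± 2.37 FPKM (SD, n = 5), a difference of -0.42 on the log2 scale, SE 0.07 (limma adjusted p = 0.00944). The 95% interval ran from 0.669-fold to 0.836-fold, and the exact two-sided permutation test gave p = 0.00794, the smallest it can give. Of all tested genes, 158 (1.17%) had a smaller limma p, and of the 839 other transcription factor genes 5 (0.596%). The call was made in each of the 11 alternative settings and in each of the 10 fits without 1 library, with adjusted p up to 0.0280. After the trend with transcript length was removed, the log2 fold change was -0.32 (adjusted p = 0.0233). In bulk liver RNA, fewer hepatocytes and less RNA per hepatocyte cannot be told apart.

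Hnf4a has a pair of annotated promoters, known as P2 and P1 in order along the gene, of which P1 is the one used in adult hepatocytes. The deposited values are per gene, so transcripts from P1 and P2 were not separated. The windows around their start sites, and that of Cebpa, the other gene called lower, are shown to give the sequence context of the genes called. Each runs from 250 bases before to 50 bases after the annotated start (RefSeq, GRCm38.p6, plus strand), and lies at chr2:163506607-163506906 for Hnf4a P2, chr2:163546905-163547204 for Hnf4a P1 and chr7:35119043-35119342 for Cebpa. Capitals mark matches, on either strand, to short forms of liver factor motifs: TGTTTNC (FOX), CAAAGNCCA (HNF4), TTNNGNAA (C/EBP) and ATTGAT (the core bound by HNF6).
Hnf4a P2: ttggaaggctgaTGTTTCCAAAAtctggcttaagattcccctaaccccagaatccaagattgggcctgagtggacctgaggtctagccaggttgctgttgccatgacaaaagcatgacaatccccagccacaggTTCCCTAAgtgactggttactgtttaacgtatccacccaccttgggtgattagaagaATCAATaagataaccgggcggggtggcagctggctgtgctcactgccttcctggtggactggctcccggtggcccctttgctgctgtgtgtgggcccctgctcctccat
Hnf4a P1: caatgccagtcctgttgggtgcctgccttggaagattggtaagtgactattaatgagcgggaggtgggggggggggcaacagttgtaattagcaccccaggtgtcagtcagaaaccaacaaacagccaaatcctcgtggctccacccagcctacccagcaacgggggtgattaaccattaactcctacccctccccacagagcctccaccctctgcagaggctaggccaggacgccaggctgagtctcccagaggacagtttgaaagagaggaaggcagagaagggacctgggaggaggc
Cebpa: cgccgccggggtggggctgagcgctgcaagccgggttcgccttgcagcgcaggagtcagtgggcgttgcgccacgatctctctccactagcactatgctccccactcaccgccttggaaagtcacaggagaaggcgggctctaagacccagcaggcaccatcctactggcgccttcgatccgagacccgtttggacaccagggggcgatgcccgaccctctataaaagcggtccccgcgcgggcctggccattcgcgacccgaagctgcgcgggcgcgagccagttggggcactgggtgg

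The P1 and Cebpa windows held none of these letters. The P2 window held 1 FOX match, 3 C/EBP matches, of which 2 overlap each other and the FOX match, and 1 HNF6 core, at -59 from the start. Of 32851 promoter windows of this length in the table, 20.5% held the FOX motif, 1.98% the HNF4 motif, 40.7% the C/EBP motif and 7.54% the HNF6 core. All 9 genes matched the table, with 14 windows, of which 3, 1, 5 and 2 held these motifs in the same order. The matches describe letters in these windows and were not tested for binding.

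Cebpa (ENSMUSG00000034957), which encodes C/EBP alpha, a factor of gluconeogenesis, the urea cycle and lipid metabolism, also fell, but less steadily across libraries. Its level was 133, 137, 118, 132 and 83.5 FPKM in controls 1 to 5, against 77.6, 87.1, 98.5, 84.4 and 84.8 FPKM in labelled knockdowns 1 to 5. Control 5 lay inside the labelled knockdown range, and the other 4 control libraries lay above it. The mean went from 121 ± 22.0 to 86.5 ± 7.59 FPKM (-0.46 on the log2 scale, SE 0.13, limma adjusted p = 0.0369), and the exact permutation p was 0.0397. The call was made in 7 of 11 alternative settings, and in 2 of 10 fits that each left out 1 library. The adjusted p rose to 0.0737, 0.0893, 0.0733 and 0.0800 without control 1, 2, 3 and 4, and to 0.0785, 0.0632, 0.0536 and 0.0702 without labelled knockdown 1, 2, 4 and 5, with log2 fold changes of -0.46 to -0.41 among these fits. It was 0.00796 without control 5, where the log2 fold change was -0.59. Median-of-ratios scaling gave 0.0587 and removal of the length trend 0.0603.

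Cebpb (ENSMUSG00000056501) encodes C/EBP beta, a factor of the acute phase response and of liver regeneration that is also made by macrophages. Its level was 121, 140, 153, 142 and 62.4 FPKM in controls 1 to 5, against 151, 116, 113, 129 and 109 FPKM in labelled knockdowns 1 to 5. Control 5 was far below the other 9 libraries, and the groups overlapped. The means were 124 ± 36.3 and 124 ± 17.3 FPKM, and the gene did not pass (log2 fold change 0.05, limma adjusted p = 0.890). The 95% interval ran from 0.746-fold to 1.44-fold, which leaves room for a fall as large as that fitted for Hnf4a. Its sign turned in 3 of 11 settings and, when 1 library was left out, in 2 of 10 fits, to -0.18 without control 5 and -0.02 without labelled knockdown 1. The ratio of Cebpa to Cebpb FPKM within a library, given as a description, was 1.10, 0.974, 0.771, 0.930 and 1.34 in controls 1 to 5 and 0.514, 0.752, 0.875, 0.652 and 0.781 in labelled knockdowns 1 to 5. Control 3 lay inside the labelled knockdown range of this ratio and the other controls above it.

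The FOXA genes encode winged helix factors that bind closed chromatin. Foxa3 (ENSMUSG00000040891), the member most abundant in these livers, held 21.8, 18.3, 23.1, 28.9 and 20.03 FPKM in controls 1 to 5 and 16.3, 20.2, 14.8, 18.4 and 15.3 FPKM in labelled knockdowns 1 to 5. Each labelled knockdown library was below the control mean, but the groups overlapped through controls 2 and 5 and labelled knockdowns 2 and 4. Foxa3 averaged 22.4 ± 4.07 and 17.0 ± 2.26 FPKM and did not pass (log2 fold change -0.37, SE 0.12, limma adjusted p = 0.0584, exact permutation p = 0.0397). It passed as lower in 3 of 11 settings, array weights (adjusted p = 0.0320) and both scalings to the FPKM sum (0.0335, and 0.0413 without mitochondrially encoded genes), and without labelled knockdown 2 (0.0479).

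Foxa2 (ENSMUSG00000037025) averaged 14.6 ± 4.61 and 12.9 ± 1.38 FPKM and Foxa1 (ENSMUSG00000035451) 5.24 ± 1.59 and 4.71 ± 0.880 FPKM. Foxa2 held 17.7, 20.7, 9.87, 13.8 and 10.7 FPKM in controls 1 to 5, and 15.2, 12.7, 12.7, 12.3 and 11.6 FPKM in labelled knockdowns 1 to 5. Foxa1 held 6.15, 7.27, 5.19, 4.53 and 3.07 FPKM in controls 1 to 5, and 4.94, 5.60, 4.39, 5.27 and 3.36 FPKM in labelled knockdowns 1 to 5. In both genes controls 1 and 2 were highest and the groups overlapped. Neither passed (log2 fold changes -0.12 and -0.10, limma adjusted p = 0.672 and 0.722). Their 95% intervals, 0.706-fold to 1.20-fold and 0.711-fold to 1.22-fold, include falls as large as that of Foxa3, and without control 2 both signs turned, to 0.014 and 0.0090. Foxa3 made up 53.7 ± 9.62% of the summed FPKM of the FOXA genes in control and 49.1 ± 3.29% in labelled knockdown livers.

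Onecut1 (ENSMUSG00000043013) had the lowest level and the widest spread of the 9. Controls 1 and 2 held 5.32 and 7.43 FPKM, controls 3, 4 and 5 held 1.43, 1.89 and 0.632 FPKM, and labelled knockdowns 1 to 5 held 0.742, 0.933, 0.408, 0.769 and 1.29 FPKM. The first 2 controls stood high, and control 5 lay inside the labelled knockdown range. The means were 3.34 ± 2.90 and 0.828 ± 0.320 FPKM, a ratio of 0.248, and the difference was -0.999 on the log2 scale, SE 0.38 (limma adjusted p = 0.0929, exact permutation p = 0.0635). It passed with array weights (adjusted p = 0.0284) and without control 5 (0.0286), and in none of the other 10 settings or 9 fits without 1 library. With a pseudocount of 0.01 the log2 fold change was -1.57, since adding 1 understates changes at this level. The authors' deposited table marks Onecut1 as significant, with a ratio of 0.248 and a q-value of 0.0313, the one gene of the 9 with that mark; each marked gene in that table differs by 2-fold or more. In the same authors' deposited table Hnf4a has a q-value of 0.000378, Cebpa 0.0324 and Foxa3 0.128. A long noncoding gene on the same strand, Gm20649, shares 2171 of the 4113 exon bases of Onecut1 in GENCODE M21. Gm20649 was listed at 0 in controls 1, 2 and 4 and labelled knockdowns 2 and 5, and at 0.422 to 1.03 FPKM in the others, so how fragments were divided between both genes may differ by library and the value of Onecut1 is uncertain.

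Nr5a2 (ENSMUSG00000026398) encodes LRH-1, and Prox1 (ENSMUSG00000010175) its corepressor, which also marks lymphatic endothelium. Nr5a2 held 9.24, 8.51, 9.75, 7.69 and 8.91 FPKM in controls 1 to 5, and 8.02, 7.57, 8.14, 7.85 and 6.20 FPKM in labelled knockdowns 1 to 5. All labelled knockdown libraries were below the control mean, with control 4 inside their range. Nr5a2 averaged 8.82 ± 0.776 and 7.56 ± 0.789 FPKM and did not pass (log2 fold change -0.20, limma adjusted p = 0.130, exact permutation p = 0.0317), nor did it in any of the 11 settings or 10 fits without 1 library. Prox1 held 10.2, 8.60, 10.5, 7.01 and 7.51 FPKM in controls 1 to 5, and 10.7, 10.03, 9.78, 9.77 and 7.70 FPKM in labelled knockdowns 1 to 5. The groups overlapped throughout, with means of 8.76 ± 1.56 and 9.59 ± 1.12 FPKM (log2 fold change 0.12, limma adjusted p = 0.488, 95% interval 0.911-fold to 1.305-fold). Prox1os, a noncoding gene that shares 133 exon bases with Prox1 on the opposite strand, averaged 1.73 ± 0.509 and 2.74 ± 0.633 FPKM and did not pass (adjusted p = 0.0525); it passed in 2 of 11 settings and 3 of the 10 fits without 1 library. The libraries were strand-marked, but no source used here says whether the counting took strand into account, so reads of such pairs may be mixed. Cebpa and Cebpb share 51 and 312 exon bases with opposite-strand genes, Gm45091 and Peds1, at most 1.72 and 6.39 FPKM, and Hnf4a, the FOXA genes and Nr5a2 share 0 exon bases with another gene in GENCODE M21.

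**Figure D2:**
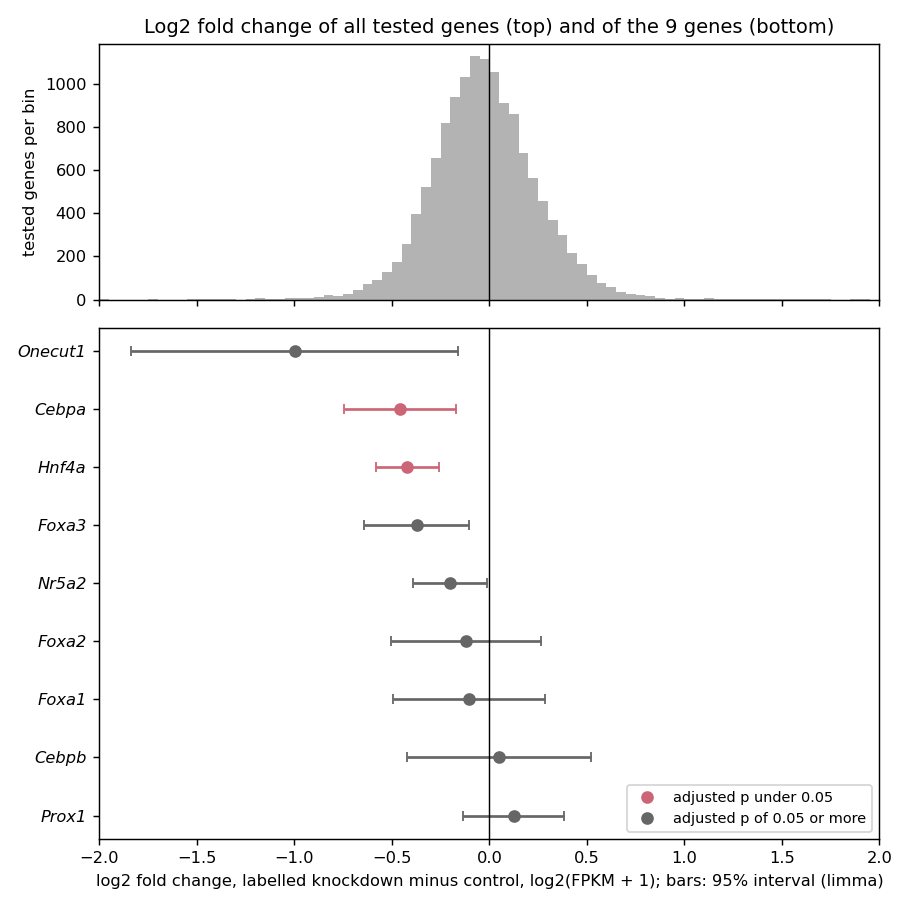
Top, the number of tested genes per bin of log2 fold change, from -2 to 2; bottom, the log2 fold change of each of the 9 genes with its 95% interval from limma, labelled knockdown minus control on the log2(FPKM + 1) scale. Hnf4a (-0.42) and Cebpa (-0.46) passed and are coloured; Onecut1 (-0.999) had the widest interval and did not pass.

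The order of mean FPKM levels began in both groups with Cebpb, Cebpa and Hnf4a, followed by Foxa3 and Foxa2, and ended with Foxa1 and Onecut1. The ranges of Foxa3 and Foxa2 overlapped in both groups. In control livers those of Cebpa and Hnf4a, of Prox1 and Foxa1, and of Foxa1 and Onecut1 also overlapped. Foxa2 was above Foxa3, and Onecut1 above Foxa1, in control 2. In control livers Cebpb and Cebpa (124 and 121 FPKM) did not differ beyond their spread, Cebpb being higher in 3 of 5 libraries. In labelled knockdown livers Cebpb was above Cebpa in 5 of 5 libraries with no overlap of their ranges (109 to 151 and 77.6 to 98.5 FPKM). Hnf4a was below Cebpa in all 10 libraries and above Foxa3 without overlap. Nr5a2 and Prox1 were neighbours with overlapping ranges in both groups, and stood in opposite orders. The spread between libraries of a group was smallest for Hnf4a, with a coefficient of variation of 7.83% in control and 3.69% in labelled knockdown livers, and largest for Onecut1, at 86.9% and 38.7%.

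**Figure D3:**
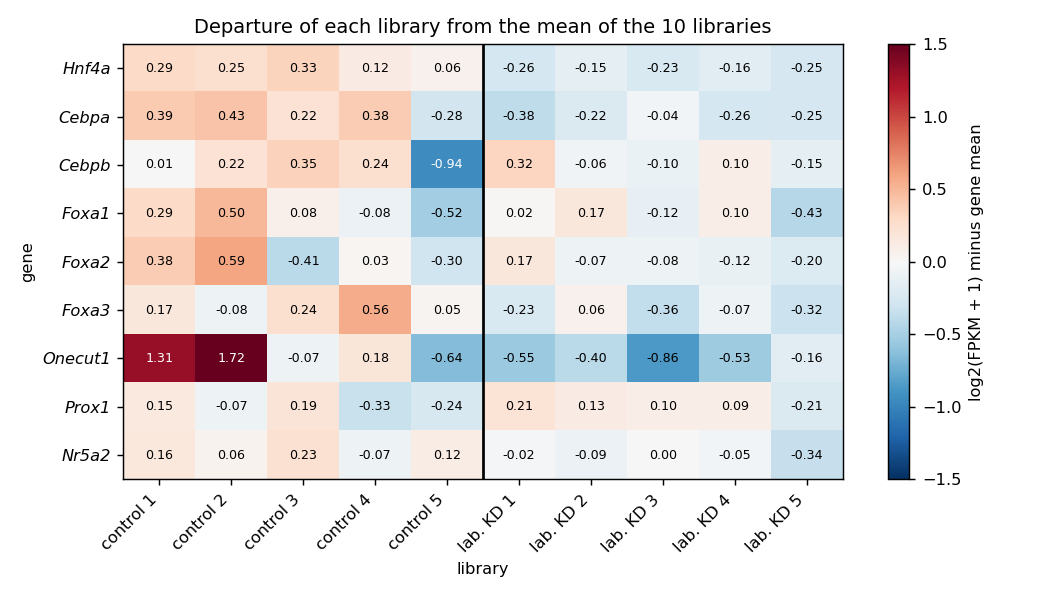
Departure of each library (columns) from the mean of the 10 libraries for each of the 9 genes (rows), in log2(FPKM + 1); red is above and blue below the mean, and the black line separates control from labelled knockdown (lab. KD). Hnf4a is above its mean in all 5 controls and below it in all 5 labelled knockdowns, control 5 is low in Cebpb (-0.94), and controls 1 and 2 are high in Onecut1 (1.31 and 1.72).

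Within groups, pairs of the 9 genes differed in how closely they varied together. After the group means were removed, the 36 pairwise correlations over the 10 libraries ran from -0.24 to 0.85, with a median of 0.40. Of these, 29 were above 0. They describe points that share their library and depth, and were not set beside those of other gene sets. Prox1 and Nr5a2 had the highest (Pearson r = 0.85, Spearman rho = 0.83), with r = 0.85 over the controls and 0.93 over the labelled knockdowns alone. It was 0.90 without controls 4 and 5, the pair of libraries farthest from the median of Prox1. Labelled knockdown 5, low in both genes at 7.70 and 6.20 FPKM, was part of each of these values except that over the controls. The r of this pair without labelled knockdown 5 was not computed. Foxa2 and Onecut1 had the next highest r (r = 0.84, rho = 0.70), but r was 0.94 over the controls and -0.37 over the labelled knockdowns. Hnf4a and Cebpa, the genes called lower, had r = 0.54 (rho = 0.37), with r = 0.61 over the controls and 0.17 over the labelled knockdowns. Of 11265 other protein-coding genes ranked by the same r over the 10 libraries, those nearest to Hnf4a were Fgfrl1 (0.95) and Kif1c (0.93), those nearest to Cebpa were Dhrs7l (0.96) and Glul (0.95), and those nearest to Onecut1 were Mri1 (0.95) and Ece1 (0.95). For Cebpb they were Erp44 and Uggt1 (both 0.94), for Prox1 Fads3 (0.95) and Zswim3 (0.94), and for Nr5a2 Bbs4 (0.94) and Clec9a (0.93). For Foxa1 they were Tead3 (0.96) and Klf13 (0.95), for Foxa2 Bex3 (0.97) and Cfap68 (0.94), and for Foxa3 Cep43 (0.94) and Rhod (0.86). Each is the highest of many r over 10 points.

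**Figure D4:**
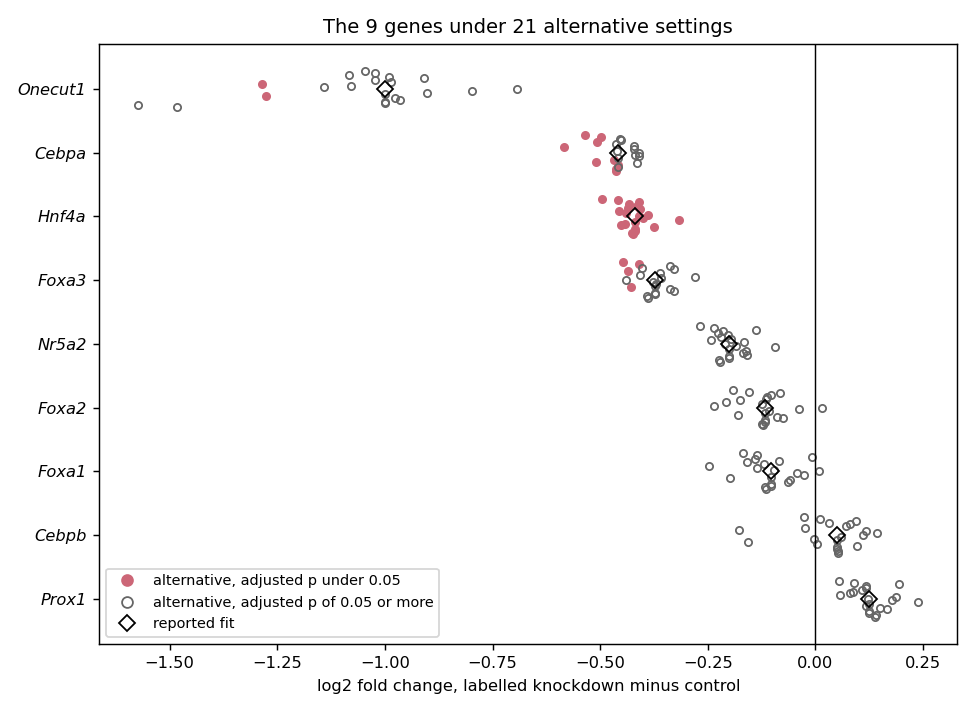
Log2 fold change (horizontal axis, labelled knockdown minus control) of the 9 genes in the reported fit (diamonds) and under 21 alternatives (circles), 11 settings and 10 fits without 1 library; filled circles have an adjusted p under 0.05. The points of Hnf4a are all filled, from -0.50 to -0.32, those of Cebpa are filled in part, and those of Prox1, Nr5a2, Foxa1, Foxa2 and Cebpb are all open.

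Other factors enriched in liver changed in both directions. Of 19 tested genes of that list, 3 were lower and 2 higher, beside 9.65% and 7.13% of all tested genes. The median log2 fold change of the list was -0.01. Hhex, a homeobox gene of early liver development, rose from 12.6 ± 2.87 to 23.0 ± 4.88 FPKM without overlap, by 0.82 ± 0.16 (SE) on the log2 scale (limma adjusted p = 0.0105), a call made in all 11 settings and 10 fits without 1 library. Rxra, the partner of many nuclear receptors, fell from 43.9 ± 5.61 to 29.8 ± 5.29 FPKM (-0.55 on the log2 scale, adjusted p = 0.0200), and with the length trend removed its adjusted p was 0.0674. Zhx2, a repressor of foetal liver genes, fell from 3.68 ± 0.267 to 2.62 ± 0.470 FPKM (adjusted p = 0.0243, and 0.0816 with the length trend removed), a call made in 8 of the 10 fits without 1 library. Nr1h4, the bile acid receptor FXR, rose from 34.3 ± 3.46 to 44.5 ± 4.21 FPKM (adjusted p = 0.0248), a call made in 5 of the 10 fits without 1 library. Creb3l3, a hepatocyte factor of the fasting response, fell from 75.8 ± 15.8 to 55.6 ± 6.14 FPKM (adjusted p = 0.0477), a call made in 1 of those 10 fits.

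Among genes listed as relatives of the members, 1 of 5 tested in the C/EBP list was higher and 0 were lower. In the deposited table Cebpz, 1 of these 5, has the family Others, and the rest of the 5 have that of leucine zipper factors. Of 10 tested FOX genes 3 were lower and 0 higher. Over all tested genes 9.65% were lower and 7.13% higher, and the lists of relatives and cofactors were not tested against these shares. Cebpe, best known from granulocytes, rose from 4.53 ± 0.704 to 6.61 ± 1.19 FPKM (0.46 on the log2 scale, limma adjusted p = 0.0282), in 6 of the 10 fits without 1 library. Ddit3, a stress-induced C/EBP relative, averaged 23.1 ± 2.50 and 42.2 ± 16.5 FPKM and did not pass (adjusted p = 0.0535). The lower FOX genes were all of the FOXO branch, factors restrained by insulin signalling. Foxo3 fell from 6.01 ± 0.946 to 3.77 ± 0.292 FPKM without overlap (-0.55 on the log2 scale, adjusted p = 0.00944), a call made in all 11 settings and 10 fits. Foxo4 fell from 6.68 ± 0.675 to 5.10 ± 0.589 FPKM (adjusted p = 0.0314) and Foxo1 from 2.77 ± 0.163 to 2.22 ± 0.0964 FPKM (adjusted p = 0.0329); these calls were made in 2 and 4 of the 10 fits, and the adjusted p was 0.0517 and 0.258 with the length trend removed. Of 13 tested cofactors 2 were lower and 0 higher: Ncor1, a corepressor of nuclear receptors, went from 6.76 ± 0.158 to 5.40 ± 0.471 FPKM (adjusted p = 0.0227, and 0.0915 with the length trend removed) and Ncoa2, a coactivator, from 2.85 ± 0.204 to 2.12 ± 0.301 FPKM (adjusted p = 0.0286, and 0.148). Nr0b2 (SHP), a corepressor and a target of NR5A2 and HNF4A, averaged 38.4 ± 17.7 and 50.6 ± 12.0 FPKM and did not pass (adjusted p = 0.254).

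Genes of hepatocyte function did not move one way. Of 34 tested genes for plasma proteins and hepatocyte enzymes, 4 were lower and 3 higher, beside 9.65% and 7.13% of all tested genes, and their median was 0.07 on the log2 scale. Cps1, the entry enzyme of the urea cycle, fell from 403 ± 66.7 to 245 ± 30.5 FPKM (-0.71 on the log2 scale, limma adjusted p = 0.00944), and Ass1, of the same cycle, from 628 ± 91.9 to 402 ± 37.8 FPKM (adjusted p = 0.00944). Apob, the structural protein of very low density lipoprotein, fell from 299 ± 26.1 to 205 ± 19.01 FPKM (adjusted p = 0.00941). The calls of Cps1, Ass1 and Apob were made in all 11 settings and 10 fits without 1 library. Apoa2, a protein of high density lipoprotein, rose from 3840 ± 616 to 6047 ± 638 FPKM (0.66 on the log2 scale, adjusted p = 0.0146), a call made in 9 of 11 settings and all 10 fits. Alb, the albumin gene, stood at 28429 ± 1857 and 25337 ± 2366 FPKM and did not pass (adjusted p = 0.406). Of 9 tested LRH-1 targets 1 was lower and 0 higher: Cidec, a lipid droplet protein, at 23.1 ± 8.25 and 12.0 ± 5.74 FPKM (adjusted p = 0.0499), a call made in 4 of 11 settings and 1 of the 10 fits. Abcg5, a sterol transporter, averaged 17.0 ± 6.14 and 25.6 ± 6.38 FPKM and did not pass (adjusted p = 0.0897). Cyp7a1, the rate-limiting enzyme of bile acid synthesis, averaged 15.4 ± 5.99 and 9.81 ± 3.38 FPKM and did not pass (adjusted p = 0.212).

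Of 7 tested foetal liver and progenitor genes, 0 passed in either direction by limma, beside 9.65% lower and 7.13% higher of all tested genes. All 7 log2 fold changes were below 0 with a median of -0.46. The median over all tested genes was -0.04, so most of those also lay below 0. Spink1, a protease inhibitor, averaged 1.01 ± 0.477 and 0.426 ± 0.268 FPKM (adjusted p = 0.0785), Sox9, a bile duct and progenitor factor, 3.35 ± 0.872 and 2.17 ± 0.625 FPKM (adjusted p = 0.0954), and Afp, the foetal counterpart of albumin, 3.10 ± 2.12 and 1.91 ± 0.260 FPKM (adjusted p = 0.291). The highest control value of Afp was 6.84 FPKM, beside a control median of 2.14 FPKM. Sox9 is also on the list of cholangiocyte markers. The other 6 of the 13 listed genes found in the table were below the filter.

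**Figure D5:**
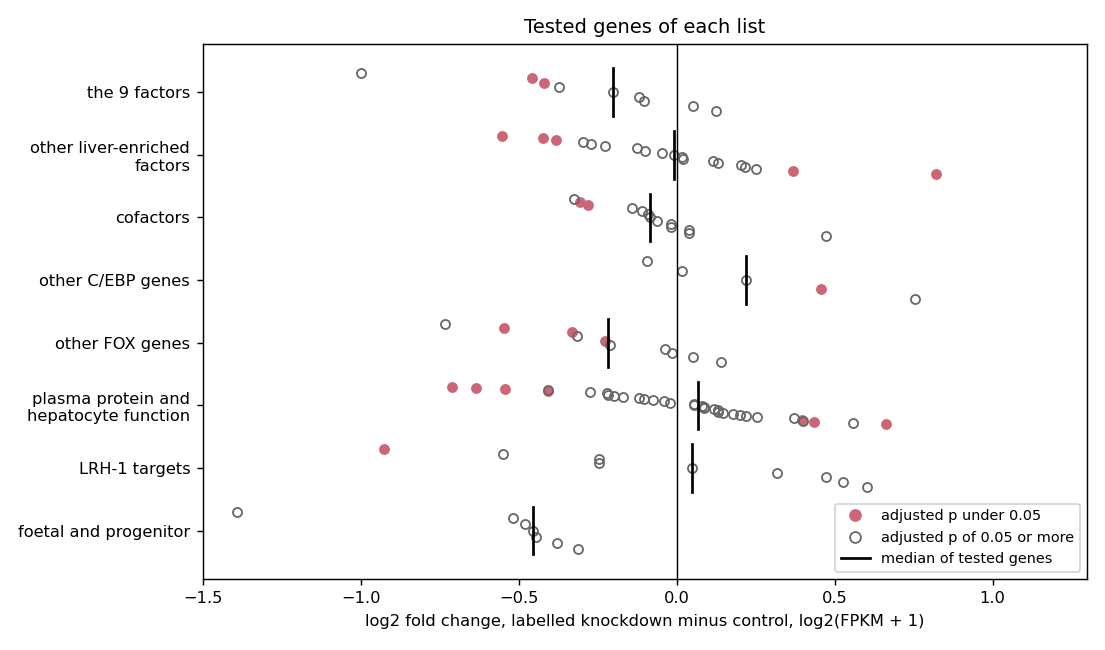
Log2 fold change (horizontal axis, labelled knockdown minus control, log2(FPKM + 1) scale) of the tested genes of each list; filled points have an adjusted p under 0.05, and the black line is the list's median. The liver-enriched factors and the hepatocyte function genes hold called genes on both sides of 0, from Hhex (0.82) to Rxra (-0.55) and from Apoa2 (0.66) to Cps1 (-0.71).

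The tissue label was met by the hepatocyte markers, whose summed level over 9 genes was 42565 to 47815 FPKM in control and 41617 to 51513 FPKM in labelled knockdown libraries, overlapping groups; 1 marker was lower and 2 were higher. Macrophage and myeloid markers, cells in which Cebpa and Cebpb are also active, summed to 387 to 676 FPKM in control and 262 to 524 FPKM in labelled knockdown libraries, with 3 of 10 tested lower and 0 higher. Cholangiocyte markers, cells that express Onecut1, Foxa1 and Foxa2, summed to 126 to 365 and 41.7 to 297 FPKM, with 0 of 5 tested called. Lymphatic endothelial markers, cells that express Prox1, summed to 3.77 to 8.67 and 3.28 to 4.71 FPKM, with 1 of 3 tested lower. That gene was Reln, which is also 1 of the 2 lower stellate cell markers given below. Lyve1 and Flt4 did not pass (limma adjusted p = 0.0536 and 0.241), and Mmrn1 and Pdpn averaged 0.0226 and 0.200 FPKM in control livers. Sinusoidal endothelial markers summed to 18.3 to 31.4 and 16.1 to 22.7 FPKM with 1 of 7 lower, stellate cell markers to 90.5 to 110 and 80.3 to 121 FPKM with 2 of 7 lower, and neutrophil markers to 6.72 to 10.6 and 6.99 to 12.7 FPKM with 0 of 3 called. Single genes made up much of some sums. In control and labelled knockdown livers, Spp1 averaged 213 and 162 FPKM, beside mean cholangiocyte sums of 228 and 173 FPKM. Lyz2 averaged 420 and 271 FPKM, beside macrophage and myeloid sums of 566 and 372 FPKM. Alb averaged 28429 and 25337 FPKM, beside hepatocyte sums of 46325 and 47080 FPKM. Over all tested genes 9.65% were lower and 7.13% higher. The part of the listed cell types in the values of the 9 genes was not tested.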

How the data were processed

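RNA of 10 livers, 5 per group, was sequenced after poly(A) selection as strand-marked libraries, per the labels' protocols. Groups and replicate numbers came from sample titles. Per the submitters' processing notes, cutadapt 1.9, HISAT2 2.0.4 and StringTie 1.3.4d were used; a human build is named there although the gene identifiers are mouse, and no source names the mouse build. The deposited FPKM values, one per gene and library, came with the authors' own ratio, log2 ratio, p-value and q-value, per the file headers; their test is not given. FPKM carries no counting interval, so the spread between 5 mice gives the precision, and nothing beyond the labels shows that these were separate animals.

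Genes with at least 0.5 FPKM in at least 5 libraries were tested as log2(FPKM + 1) with limma 3.58.1 in R 4.3.3. The fit had group as its only term and let the variance follow the mean. P-values were two-sided, adjusted by Benjamini-Hochberg over all 13471 genes and called at 0.05. Fold changes on this scale understate changes of low genes. Single genes were also compared by exact permutation. The scripts were first tested on simulated data. There, 65% of 100 genes changed 1.5-fold and 91% of 100 genes changed 2-fold were called, and 4.88% of calls were false. Real changes of 1.5-fold or less can therefore fail to pass. Transcript lengths (GENCODE M21, longest transcript) covered 97.9% of tested genes, and their trend was removed by a spline with 4 degrees of freedom. Of the 163 listed symbols 160 were in the table. The named genes were the 9 members and, from the other lists, mainly the called genes of smallest p, at most 4 a list, or the first 2 by p where 0 or 1 passed; Creb3l3, Alb, Cyp7a1, Nr0b2 and Afp were added after their values were seen, and cell marker lists are given by counts and sums. Members and lists were chosen with earlier results of these data known. As alternatives, the pseudocount, the filter and the scaling were changed, array weights or a replicate block were added, the length trend was removed, and each library was left out.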

Additional observations from a re-analysis of the deposited data

Results flagged for a closer look

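In 18 groups of 5 values (9 genes in 2 groups, on the log2(FPKM + 1) scale), 3 held a library whose gap to the nearest other library was over 0.71 of the range of its group, where chance gives about 1 in 20 groups. Cebpb was low in control 5, at 62.4 FPKM beside 121 to 153 FPKM in the other controls. Control 5 was also the lowest control for Hnf4a, Cebpa, Foxa1 and Onecut1, and its gap share for Cebpa, 0.707, was just under the cut. Foxa2, Foxa3, Prox1 and Nr5a2 were lowest in another control. Prox1 and Nr5a2 were both low in labelled knockdown 5, at 7.70 and 6.20 FPKM, where the other labelled knockdown libraries held 9.77 to 10.7 and 7.57 to 8.14 FPKM. The cause was not tested.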

How the results depend on the processing

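Of the 9 genes, Hnf4a kept its direction and its call under the 11 alternative settings and the 10 fits without 1 library, with log2 fold changes of -0.50 to -0.32. The number of members called lower was 2 in the reported fit. It was 1 with no filter on low values, median-of-ratios scaling, the replicate block or the length trend removed. With both scalings to the FPKM sum it was 3, and with array weights 4. In the fits without 1 library it ranged from 1 to 3. The number of members called higher was 0 throughout. Over all tested genes, 682 were lower and 511 higher with no filter, 2047 lower with array weights, 720 lower with the length trend removed, and 1974 lower and 632 higher with libraries scaled to their FPKM sum; without 1 library, 549 to 1736 were lower and 442 to 966 higher. Both scalings to the FPKM sum were chosen after seeing the data. The sign of Cebpb turned to -0.16 with array weights, -0.0024 with the length trend removed and -0.026 with scaling to the FPKM sum, and ran from -0.18 to 0.14 without 1 library; Foxa1 ran from -0.25 to 0.0090 and Foxa2 from -0.23 to 0.014. The causes were not tested. Same-numbered libraries of both groups had correlations of -0.01 to 0.11 in their departures from group means, and 1 of 5 matched its own number best, so the numbers were not taken as pairs; with the replicate block 986 genes were lower and 769 higher, and Cebpa had an adjusted p of 0.0536. FPKM gives no read depth, so the precision for Onecut1, near 1 FPKM in most libraries, rests on the spread alone.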
